A study of Mus musculus with 847 samples.

Results

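The genes described here are 8 Toll-like receptor genes (Tlr1, Tlr2, Tlr3, Tlr4, Tlr6, Tlr7, Tlr9 and Tlr13), the co-receptor gene Cd14 and the adaptor gene Myd88. They were chosen by name, and all 10 were found among the 21076 genes of the deposited count table. The table holds 847 RNA-seq libraries from 15 dissected brain regions of 59 C57BL/6JN mice, with 1 library per mouse and region. There were 5 females and 5 males at 3, 12, 15 and 18 months, 5 females and 6 males at 21 months, 5 males at 26 months and 3 males at 28 months. The labels name no treatment, transgene or mutation in any group. All mice share 1 strain, and the ages of 26 and 28 months hold no females, so the oldest ages and the male sex cannot be told apart. White matter tracts in aging are named in the series title, and the corpus callosum is the dissected tract among the 15 regions.

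Toll-like receptors are innate immune receptors that recognise conserved molecules of microbes and of damaged cells. Tlr2 with Tlr1 or Tlr6 binds lipoproteins at the cell surface, and Tlr4 binds lipopolysaccharide that Cd14 hands over. Tlr3 binds double-stranded RNA, Tlr7 single-stranded RNA, Tlr9 unmethylated DNA and Tlr13 bacterial ribosomal RNA, all in endosomes. Myd88 is the adaptor that carries the signal of most of these receptors to NF-kappaB, whereas Tlr3 signals through another adaptor, Ticam1. In the brain the receptors are known mainly from microglia and border macrophages, with Tlr3 also in astrocytes and other cells.

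The shallowest library held 481444 reads, the median 6716032 and the deepest 26756735, and 10 libraries held fewer than 1e6 reads. Most of the 10 genes are low, so a single library gives a coarse value. The median library held 77 reads of Tlr3, 38 of Myd88, 17 of Cd14, 15 of Tlr2, 12 of Tlr4, 12 of Tlr7, 10 of Tlr13, 3 of Tlr1, 3 of Tlr6 and 1 of Tlr9. Levels are given as counts per 1e6 reads of the library (CPM). In 5 libraries the gene content had been found in earlier work on these data to stand apart from the label or the sex: entorhinal cortex of mouse 52, cerebellum of mice 25 and 40, subventricular zone of mouse 3 and posterior hippocampus of mouse 38. Every count of calls below that was recomputed without them was the same.

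In GENCODE M21 (genome build GRCm38) Tlr1 lies at chr5:64924679-64933563 and Tlr6 at chr5:64952031-64960097, both on the minus strand, side by side on 1 chromosome. Tlr2 lies at chr3:83836272-83841767 (minus strand), Tlr3 at chr8:45395665-45411080 (minus), Tlr4 at chr4:66827584-66930284 (plus) and Tlr9 at chr9:106222598-106226883 (plus). The X chromosome carries Tlr7 at chrX:167304929-167330558 (minus) and Tlr13 at chrX:106143204-106160493 (plus). Myd88 lies at chr9:119335934-119341411 (minus). The libraries are unstranded. The antisense gene Gm45542 overlaps Tlr3, and Acaa1a and Slc22a14 overlap Myd88, so reads in the overlaps cannot be assigned with certainty. The other 8 genes overlap no annotated gene.

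Tlr1 and Tlr6 share stretches of identical sequence, which bears on how their reads are counted. The longest shared run is 229 bases of coding sequence, shown here because a read inside it fits both genes equally. It lies at chr5:64925537-64925765 in Tlr1 and at chr5:64953828-64954056 in Tlr6, and is printed in the sense of the genes (minus strand).
Tlr1 and Tlr6 shared run: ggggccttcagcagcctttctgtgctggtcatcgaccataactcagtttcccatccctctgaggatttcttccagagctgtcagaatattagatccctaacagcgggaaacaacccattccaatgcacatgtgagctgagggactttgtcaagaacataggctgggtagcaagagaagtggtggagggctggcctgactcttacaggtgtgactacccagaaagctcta
Of the windows of 50 bases in the exons, 13.6% of those of Tlr1 and 12.3% of those of Tlr6 occur in both genes. Among the other 44 pairs of the 10 genes the longest shared run is 18 bases and 0 pairs share a window of 50 bases. The values of Tlr1 and Tlr6 are therefore uncertain in their split between the genes.

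Promoter windows from RefSeq (GRCm38.p6, 250 bases before to 50 bases after a start site) were matched for 7 of the 10 genes. They are shown for Tlr2, Tlr13 and Myd88, the receptors with the most rising regions and their adaptor. Capitals mark matches, on either strand, to core motifs that were chosen after the sequences had been seen. The searched cores are GGGANNTNCC for NF-kappaB, GAAANNGAAA for interferon regulatory factors and GAGGAAG for PU.1, a factor that sets myeloid cell identity. None of the cores overlaps another in these 3 windows.
Tlr2, chr3:83841559-83841858, minus strand: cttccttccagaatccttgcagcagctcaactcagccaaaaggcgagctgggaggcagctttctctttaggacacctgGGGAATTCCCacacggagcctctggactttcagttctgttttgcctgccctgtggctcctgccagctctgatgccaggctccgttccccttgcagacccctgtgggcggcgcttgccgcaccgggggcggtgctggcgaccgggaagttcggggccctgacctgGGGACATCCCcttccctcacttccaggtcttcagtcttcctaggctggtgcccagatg
Tlr13, chrX:106143025-106143324, plus strand: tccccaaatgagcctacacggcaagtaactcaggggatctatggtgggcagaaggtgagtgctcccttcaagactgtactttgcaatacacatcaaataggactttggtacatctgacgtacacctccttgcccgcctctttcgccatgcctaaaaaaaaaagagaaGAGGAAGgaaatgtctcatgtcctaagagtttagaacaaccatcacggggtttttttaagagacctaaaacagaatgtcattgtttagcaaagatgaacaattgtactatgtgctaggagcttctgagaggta
Myd88, chr9:119339969-119340268, minus strand: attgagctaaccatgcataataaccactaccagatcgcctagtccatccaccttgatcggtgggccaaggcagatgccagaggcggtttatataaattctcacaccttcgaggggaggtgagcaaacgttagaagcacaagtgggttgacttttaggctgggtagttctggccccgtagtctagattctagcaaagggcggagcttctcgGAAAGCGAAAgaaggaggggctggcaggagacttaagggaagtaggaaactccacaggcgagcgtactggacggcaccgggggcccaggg
The Tlr2 window holds the NF-kappaB core at positions -172 and -8 from the start site, the Tlr13 window the PU.1 core at -83, and the Myd88 window the interferon regulatory factor core at -40. Of 32544 windows of this length, 3.99% hold the NF-kappaB core, 3.45% the interferon regulatory factor core and 13.4% the PU.1 core. The PU.1 core is thus common, and a match describes letters, not a bound site. Further windows with a match were those of Tlr3 (NF-kappaB), Tlr6 (interferon regulatory factors), and Tlr1 and Tlr9 (PU.1).

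Per length, Tlr3 and Myd88 were the most abundant of the 10 genes. Their means over all libraries were 2.35 CPM per kb of exon for Tlr3 and 2.27 for Myd88, followed by 1.75 for Cd14 and 1.01 for Tlr2. The other receptors were lower, at 0.479 CPM per kb for Tlr7, 0.357 for Tlr13, 0.331 for Tlr4, 0.142 for Tlr6, 0.128 for Tlr1 and 0.0638 for Tlr9.

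Tlr2 had the widest range over the regions. Its mean level was 6.35 ± 2.73 CPM (SD, n = 51) in pons and 6.07 ± 2.26 CPM (n = 58) in medulla, against 1.19 ± 0.651 CPM (n = 56) in visual cortex and 1.09 ± 0.524 CPM (n = 59) in motor cortex. Pons stood 5.82-fold above motor cortex, and the pons library was the higher in 51 of 51 mice with both. Pons and medulla could not be ordered, since pons was higher in 28 of 51 mice. The order of the regions in between was choroid plexus, hypothalamus, corpus callosum, cerebellum, subventricular zone, thalamus, caudate putamen, olfactory bulb, anterior hippocampus, entorhinal cortex and posterior hippocampus. Each of the 14 steps in that order was smaller than the SD of the regions it joins.

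Tlr4 differed in its order of regions. It was highest in olfactory bulb, at 3.66 ± 1.06 CPM (n = 58), followed by subventricular zone at 2.07 ± 0.867 CPM (n = 55). The olfactory bulb library was the higher in 47 of 54 mice with both, and this was the only step of Tlr4 larger than the SD of its regions. Cd14, which serves Tlr4, was highest in pons (4.73 ± 1.89 CPM, n = 51) and caudate putamen (4.39 ± 1.75 CPM, n = 58) and lowest in motor cortex (1.77 ± 0.932 CPM, n = 59).

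Tlr3 had its highest means in medulla (18.3 ± 7.71 CPM, n = 58) and olfactory bulb (17.7 ± 3.14 CPM, n = 58), and its lowest in cerebellum (9.42 ± 2.7 CPM, n = 58). Medulla was the higher of the first pair in only 22 of 57 mice with both, and its median was the lower (15.9 against 18 CPM). The SD in medulla was more than 2 times that in any other region, and it is taken up below. Tlr7 was highest in anterior hippocampus (2.75 ± 1.07 CPM, n = 57) and lowest in cerebellum (0.933 ± 0.622 CPM, n = 58), with the hippocampal library higher in 56 of 56 mice. Tlr13 ran from 2.02 ± 1.12 CPM (n = 51) in pons to 0.968 ± 0.645 CPM (n = 58) in cerebellum. Cerebellum thus had the lowest mean for these 3 endosomal receptors, and for Tlr9, at 0.0995 ± 0.167 CPM (n = 58). This was not particular to endosomal receptors, since the surface receptor Tlr6 was lowest there too, at 0.284 ± 0.251 CPM (n = 58). For Tlr3 the thalamus, at 9.46 ± 1.76 CPM (n = 59), was about as low. Myd88 varied least, from 6.94 ± 1.64 CPM (n = 51) in pons to 4.82 ± 1.31 CPM (n = 58) in caudate putamen, a 1.44-fold range.

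**Figure D1:**
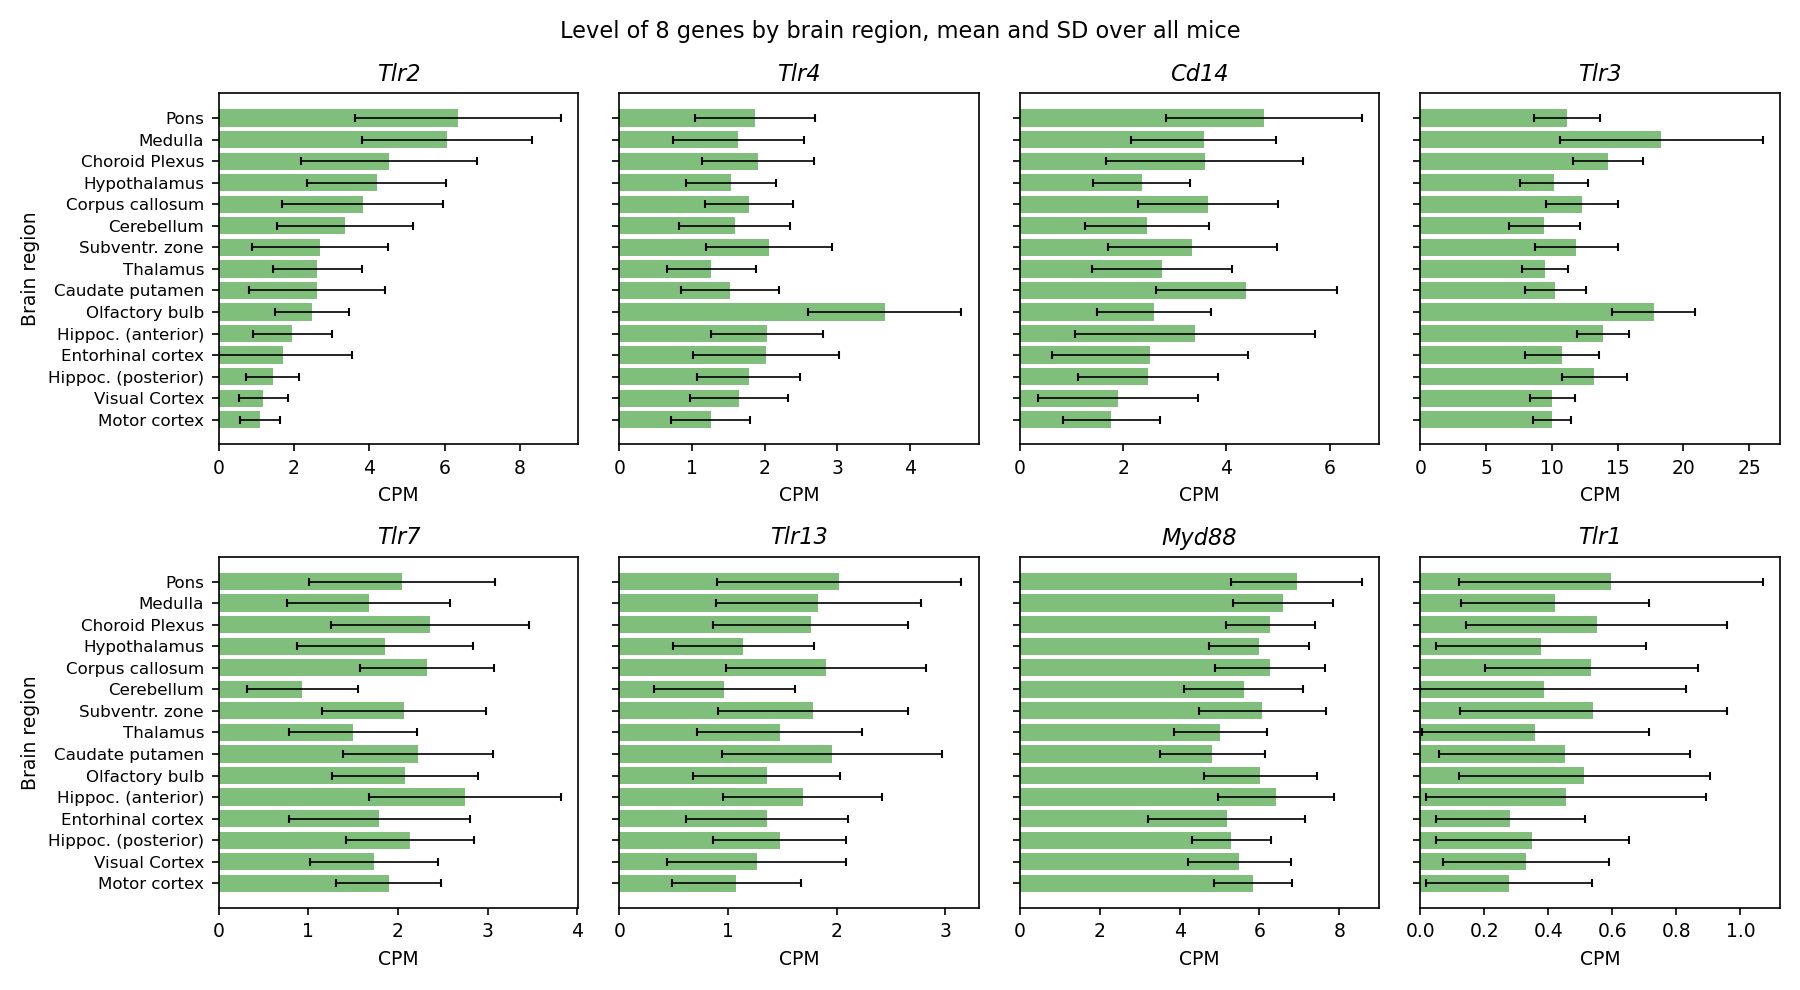
Bars give the mean CPM of 8 of the genes in each brain region over all mice (51 to 59 libraries a region), whiskers the SD, cut at 0, and regions are ordered by Tlr2. Tlr2 spans 6.35 CPM in pons to 1.09 CPM in motor cortex, Tlr4 stands out in olfactory bulb at 3.66 CPM, and Myd88 varies least.

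The slope with age, in log2 units per month and beside a term for sex, was fitted within each region by edgeR's quasi-likelihood test with Benjamini-Hochberg adjustment over all genes tested there and a threshold of 0.05. Of 150 gene and region pairs, 108 passed the filter on low counts. Among them 46 rose with age and 2 fell, against 6.37% rising and 5.10% falling of the 214677 pairs of all genes. The median slope of the 108 pairs was 0.02 log2 per month and 92 were positive, against a median of -0.000122 and 49.1% positive for all pairs. The 42 pairs that did not pass the filter belong to Tlr1, Tlr6 and Tlr9.

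The regions differed in how many of the genes rose. Medulla had 7 of 7 tested (all genes 6.56%), choroid plexus 7 of 8 (11.5%), corpus callosum 7 of 8 (9.65%), cerebellum 6 of 7 (10.5%) and pons 5 of 8 (4.62%). Posterior hippocampus (4.53%) and subventricular zone (4.85%) each had 3 of 7. Caudate putamen (7.68%), hypothalamus (4.13%) and thalamus (2.78%) each had 2 of 7. Anterior hippocampus (6.89%) and motor cortex (8.39%) each had 1 of 7, which was Tlr2. No gene of the 7 tested rose in entorhinal cortex (0.186%), olfactory bulb (7.78%) or visual cortex (5.81%) by edgeR or by DESeq2. At an unadjusted p under 0.05, 2 rose in entorhinal cortex and 0 in each of the other two. In visual cortex 2 genes fell, Cd14 and Myd88, where 4.94% of all genes fell.

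**Figure D2:**
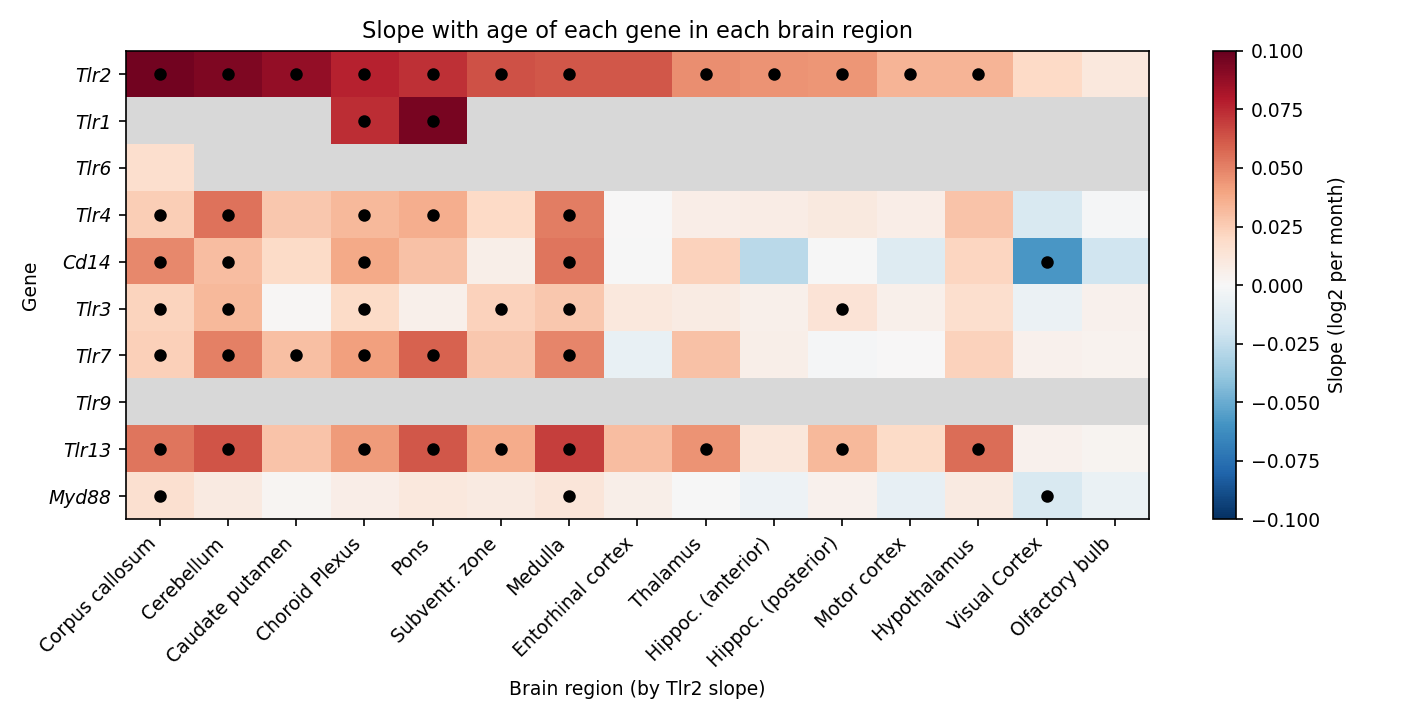
Colour gives the slope with age of each gene (rows) in each region (columns, ordered by the Tlr2 slope) in log2 per month, dots mark an adjusted p under 0.05, and grey cells did not pass the filter on low counts. Tlr2 is marked in 12 of 15 regions, Tlr13 in 9, and the dotted blue cells of Cd14 and Myd88 in visual cortex are the 2 falls.

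Among the surface receptors, Tlr2 rose in 12 of 15 regions, with slopes in those regions from 0.0341 ± 0.0099 (SE) in hypothalamus to 0.0961 ± 0.00982 log2 per month in corpus callosum. In corpus callosum the 10 mice of 3 months had 0.262 to 4.05 CPM (median 1.56), and the 3 mice of 28 months 6.63, 6.87 and 9.23 CPM. The 4 mice of 26 months had 4.97, 5.83, 6.61 and 9.06 CPM, so both oldest groups lay above every 3-month mouse. The means rose in order over all 7 ages, from 1.69 ± 1.06 (SD) through 2.04 ± 0.787, 3.37 ± 1.34, 4.65 ± 1.4, 4.81 ± 1.51 and 6.62 ± 1.76 to 7.58 ± 1.44 CPM, which is 4.47-fold from first to last (adjusted p of the slope 1.91e-11).

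In pons Tlr2 was 2.72 to 4.33 CPM (median 3.52, n = 9) at 3 months and 9.2, 9.77 and 13 CPM at 28 months, with a slope of 0.0728 ± 0.00587 (adjusted p = 1.56e-14). In cerebellum it was 0 to 2.48 CPM (median 1.34, n = 10) at 3 months and 3.2, 4.76 and 7.94 CPM at 28 months (slope 0.0934 ± 0.00916). The groups did not overlap in either region. Slopes in the other rising regions were 0.0877 in caudate putamen, 0.077 in choroid plexus, 0.0636 in subventricular zone, 0.0624 in medulla, 0.0468 in thalamus, 0.0447 in anterior and 0.0443 in posterior hippocampus and 0.0343 in motor cortex. In entorhinal cortex the slope was 0.0619 ± 0.0228 with an adjusted p of 0.3, in visual cortex 0.0203 ± 0.0121 and in olfactory bulb 0.0102 ± 0.00939. Some of these calls were weak. In posterior hippocampus the slope was 0.0305 without mouse 59 (adjusted p = 0.0733). In hypothalamus it was 0.0314 without mouse 57 and 0.0302 without mouse 58 (adjusted p = 0.0619 and 0.0572), and 0.0231 with granulocyte markers as a covariate (adjusted p = 0.221). The summed level of those markers in hypothalamus had a median of 0.717 CPM at 3 months and was 33.9 and 56.6 CPM in the 2 mice of 28 months. In motor cortex the slope was 0.00382 without mice 45 to 59 (adjusted p = 0.891), 0.00709 in males alone (adjusted p = 0.744) and 0.0248 with the granulocyte covariate (adjusted p = 0.173).

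**Figure D3:**
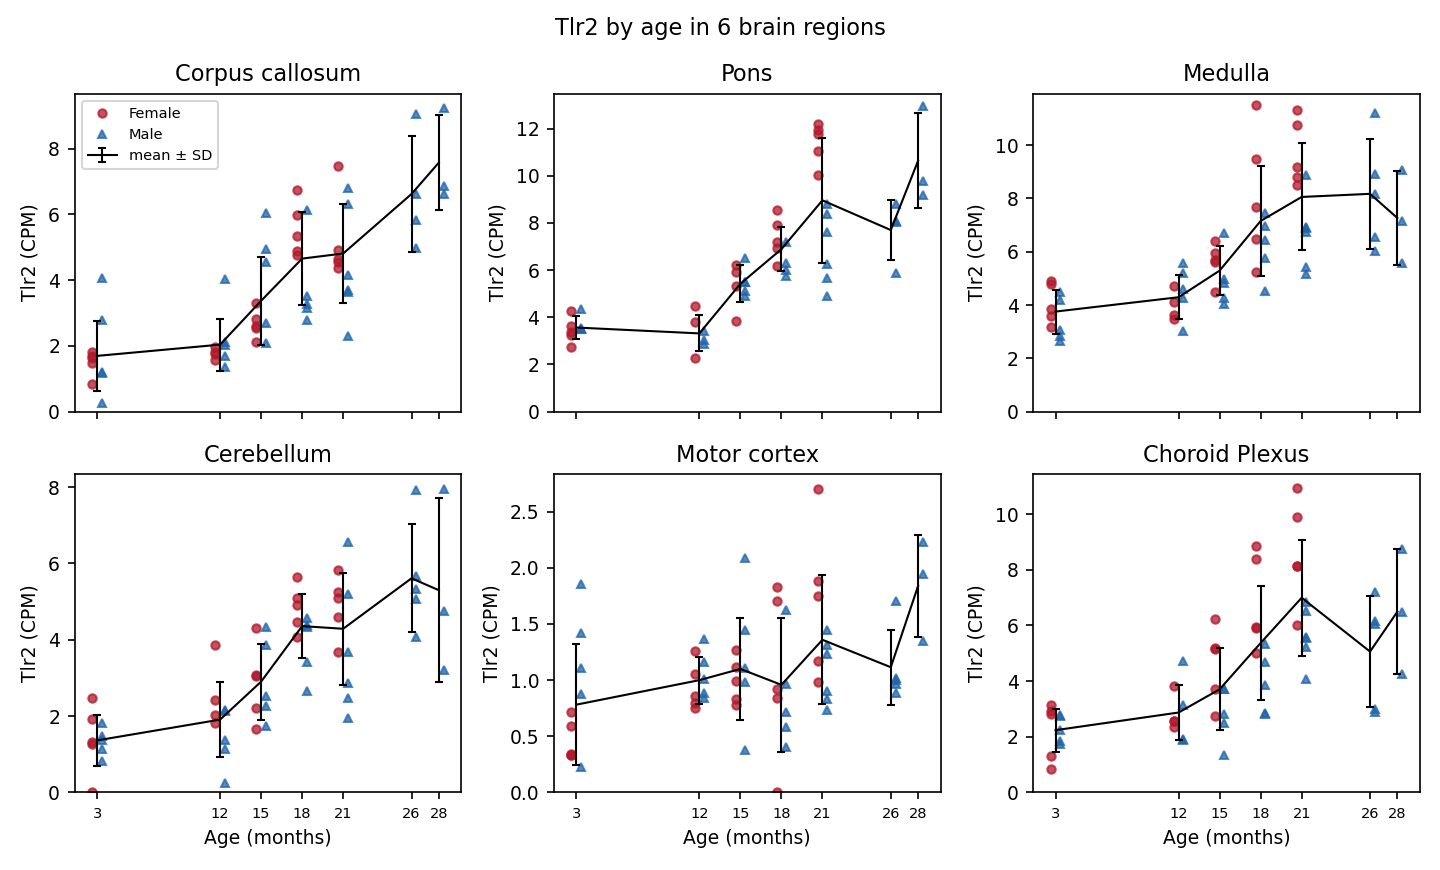
Each point is the Tlr2 level (CPM) of 1 mouse, circles for females and triangles for males, against age in months in 6 regions, and the line joins the mean ± SD of each age. In corpus callosum the 28-month mice lie at 6.63 to 9.23 CPM, above the 0.262 to 4.05 CPM of the 3-month mice, while motor cortex stays under 3 CPM throughout.

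The partners of Tlr2 were too low to be tested in most regions. Tlr1 passed the filter in pons and choroid plexus and rose in both, with slopes of 0.0953 ± 0.0148 (adjusted p = 1.35e-06) and 0.074 ± 0.0157 (adjusted p = 0.000391). A gene this low can pass the filter through its highest libraries alone, so the rise in both regions is not independent of the filter. These 2 pairs are part of the 46 that rose. In pons Tlr1 was 0.0561 to 0.76 CPM (median 0.363) at 3 months, 0.669, 0.702, 0.827 and 2.35 CPM at 26 months, and 0, 1.06 and 1.71 CPM at 28 months, so the groups overlapped. With no filter it rose in 6 regions. Tlr6, which passed only in corpus callosum, had a slope there of 0.0165 ± 0.0134 (adjusted p = 0.43), and with no filter it rose in 0 of 15 regions by edgeR and in 2 at an unadjusted p under 0.05.

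Tlr4, the lipopolysaccharide receptor, rose in 5 of 15 regions: cerebellum (0.0543 ± 0.00875, adjusted p = 2.72e-06), medulla (0.051 ± 0.0107), pons (0.036 ± 0.00931), choroid plexus (0.0327 ± 0.00885) and corpus callosum (0.0246 ± 0.00756). In cerebellum it was 0.605 to 1.52 CPM (median 1.06) at 3 months and 1.96, 2.16 and 2.61 CPM at 28 months, without overlap. In olfactory bulb, its highest region, the slope was -0.000881 ± 0.00666. There the 3-month mice had 2.51 to 5.09 CPM (median 4.03) and the 28-month mice 0.883, 3.5 and 4.03 CPM, so high level and rise with age lay in different regions.

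Cd14 lies at chr18:36725067-36726798 (minus strand). It rose in medulla (0.0539 ± 0.00805, adjusted p = 7.15e-07), corpus callosum (0.0484 ± 0.00754, adjusted p = 1.66e-06), choroid plexus (0.0381 ± 0.0115, adjusted p = 0.0145) and cerebellum (0.0308 ± 0.00975, adjusted p = 0.019). In medulla the level was 1.51 to 5.54 CPM (median 2.4) at 3 months, 4.39, 4.69, 5.25, 5.91 and 5.91 CPM at 26 months and 4.52, 4.94 and 5.22 CPM at 28 months. The highest 3-month value lay above all of the 28-month values, and it came from mouse 17. In visual cortex Cd14 fell, with a slope of -0.058 ± 0.0137 (adjusted p = 0.00281).

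The fall in visual cortex rested on the youngest mice. The 3-month group had 0.851 to 10.8 CPM with a median of 2.02, and its highest values, 10.8 and 6.25 CPM, came from the males numbered 17 and 25. The other 8 mice of that age had 0.851 to 2.48 CPM. Medians at later ages were 1.66, 1.33, 1.62, 1.7, 2.4 and 0.894 CPM, within the range of those 8 mice. Without mouse 17 the slope was -0.0159 ± 0.013 (adjusted p = 0.494), and without both mice the slope was 0.00367 ± 0.0128 (adjusted p = 0.908).

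The same males stood high for Cd14 in most of the brain. Over the 10 mice of 3 months, mouse 17 had the highest Cd14 in 11 of 15 regions and mouse 25 in the other 4. In anterior hippocampus mouse 17 had 17 CPM against 1.62 to 8.82 CPM (median 2.73) in the other 9 mice, and in entorhinal cortex 12.6 CPM against 1.01 to 3.29 CPM. In thalamus its library held 528123 reads and listed Cd14 at 0. Averaged over regions, mice 17 and 25 had ranks 1 and 2 of all 59 mice.

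**Figure D4:**
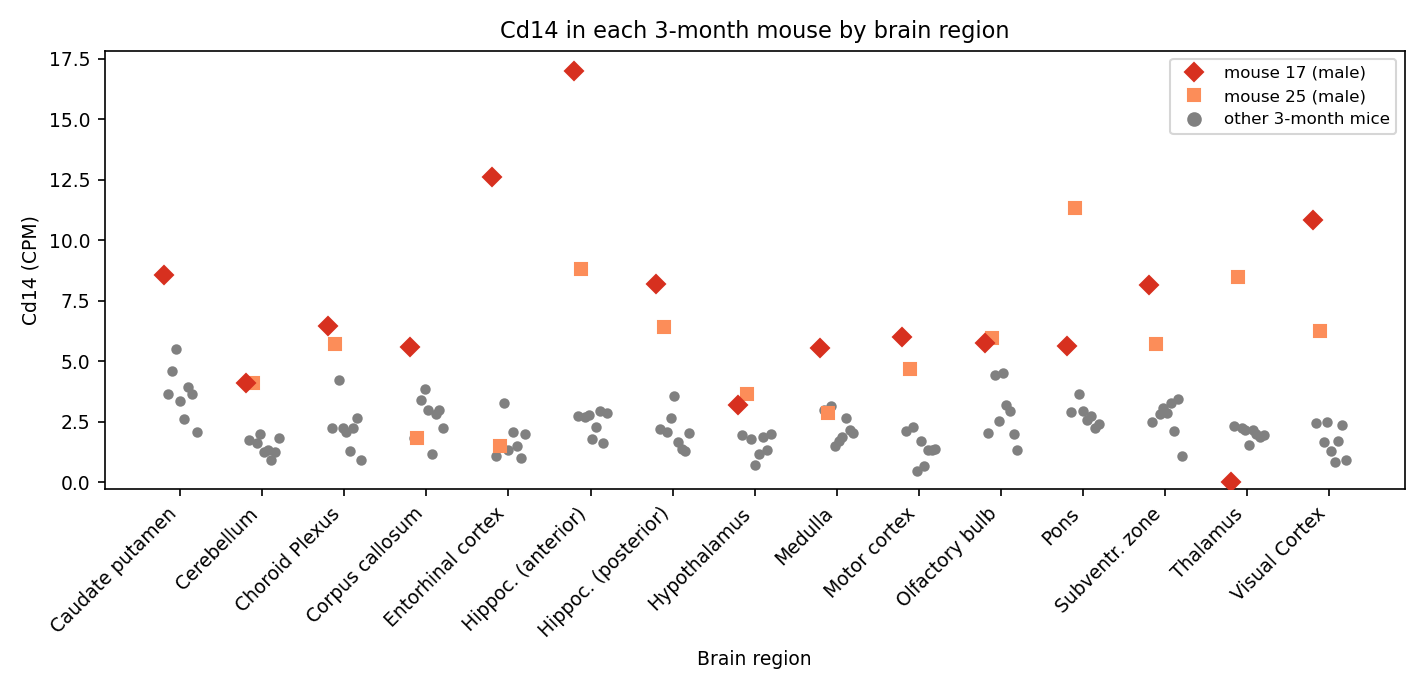
Each point is the Cd14 level (CPM) of 1 mouse of 3 months in 1 region, with diamonds for mouse 17, squares for mouse 25 and circles for the other mice. Mouse 17 reaches 17 CPM in anterior hippocampus and 10.8 CPM in visual cortex, where the other mice apart from mouse 25 stay at or under 2.48 CPM.

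Leaving out mice 17 and 25, a choice made after their Cd14 values were seen, Cd14 rose in 11 regions and fell in none. Removing the highest of the youngest mice raises a slope by construction, so this gives the reach of 2 mice and is no test. The slope became 0.0643 ± 0.00701 in pons (from 0.0294), 0.0531 in cerebellum (from 0.0308), 0.0411 in thalamus (from 0.0231), 0.0357 in subventricular zone (from 0.00566) and 0.0316 in anterior hippocampus (from -0.0273). In olfactory bulb it was -0.00693 ± 0.00926. For Tlr2, which had no part in the choice of the mice, 11 regions rose in place of 12.

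Among the endosomal receptors, Tlr13 rose in 9 of 15 regions: medulla (0.0695 ± 0.00941, adjusted p = 5.5e-08), cerebellum (0.0625), pons (0.0624), hypothalamus (0.0559), corpus callosum (0.0537), thalamus (0.0447), choroid plexus (0.0422), subventricular zone (0.0374) and posterior hippocampus (0.0321). In medulla Tlr13 was 0 to 1.73 CPM (median 0.922) at 3 months, 1.9, 2.32, 2.53, 2.78 and 4.68 CPM at 26 months and 2.09, 2.82 and 3.29 CPM at 28 months. All 8 of these oldest mice lay above every 3-month mouse.

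Tlr7 rose in 6 regions, from 0.0236 ± 0.00816 in corpus callosum to 0.0593 ± 0.0105 log2 per month in pons (adjusted p = 4.01e-05). In pons it was 0.484 to 2.6 CPM (median 1.25) at 3 months, 0.587, 1.05, 3.34 and 4.13 CPM at 26 months and 3, 3.73 and 4.03 CPM at 28 months. The 28-month mice lay above all of the 3-month mice, while the 26-month mice fell on both sides. Calls of Tlr7 that ended without 1 of the 28-month mice were those in caudate putamen (without mouse 59, adjusted p = 0.0822) and corpus callosum (without mouse 57 or 58, 0.0584 and 0.0809).

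Tlr3, the most abundant receptor, had smaller slopes. It rose in 6 regions: cerebellum (0.0324 ± 0.00539, adjusted p = 6.01e-06), medulla (0.027 ± 0.008), subventricular zone (0.0228 ± 0.00557), corpus callosum (0.0225 ± 0.00444), choroid plexus (0.0192 ± 0.00384) and posterior hippocampus (0.0135 ± 0.0042). In corpus callosum Tlr3 was 7.81 to 14.3 CPM (median 10.4) at 3 months, 15.7, 16.3, 16.6 and 16.8 CPM at 26 months, and 13.5, 18 and 18.6 CPM at 28 months. The 26-month mice lay above all of the 3-month mice, and 1 of the 3 oldest did not. Without mouse 58 the slope in medulla was not called (adjusted p = 0.0725), and in posterior hippocampus leaving out mouse 5, 21, 41, 57, 58 or 59 ended the call, with adjusted p from 0.0502 to 0.0807. Tlr9 passed the filter in no region. With no filter it rose in 0 of 15 regions by edgeR and in 3 at an unadjusted p under 0.05.

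Myd88, the shared adaptor, moved little. It rose in corpus callosum (0.0158 ± 0.00546, adjusted p = 0.0342) and medulla (0.012 ± 0.00372, adjusted p = 0.0262), and fell in visual cortex (-0.0152 ± 0.00493, adjusted p = 0.0344). In corpus callosum it was 3.95 to 7.6 CPM (median 5.47) at 3 months and 6.12, 7.94 and 9.16 CPM at 28 months, with overlap. In visual cortex it was 4.42 to 7.52 CPM (median 6.18) at 3 months and 3.57, 5.55 and 5.56 CPM at 28 months, again with overlap. These calls of Myd88 were close to the threshold. In corpus callosum the adjusted p was 0.0523 to 0.0847 without mouse 11, 21, 57 or 58, in visual cortex 0.0618 without mouse 17 and 0.0525 without mouse 41, and in medulla 0.0622 without mice 17 and 25. DESeq2 called neither the fall of Myd88 nor that of Cd14 in visual cortex (adjusted p = 0.0546 and 0.0646).

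Because the libraries of a mouse are not independent, each mouse was also reduced to 1 value per gene, the mean over its regions of log2 CPM relative to the region mean, and tested by limma over the 59 mice. All 9 genes tested rose, where 22.1% of 16000 genes rose and 23.3% fell. Tlr2 had the steepest slope, 0.0504 ± 0.00395 log2 per month (adjusted p = 1.18e-16), followed by Tlr13 (0.0349 ± 0.00397), Tlr1 (0.0291 ± 0.00402), Tlr7 (0.022 ± 0.0041), Cd14 (0.0194 ± 0.00562, adjusted p = 0.00357), Tlr4 (0.0191 ± 0.00331), Tlr3 (0.0122 ± 0.0016), Tlr6 (0.0121 ± 0.00365) and Myd88 (0.00467 ± 0.00175, adjusted p = 0.0246). In the 34 males alone, 5 of the 9 rose, with slopes of 0.00925 ± 0.00751 for Cd14 (adjusted p = 0.349) and 0.0105 ± 0.00499 for Tlr7 (adjusted p = 0.0935). At 3 to 21 months 7 of the 9 rose, without Cd14 (0.0145, adjusted p = 0.107) and Myd88 (adjusted p = 0.194). Mice 16 to 56 lack all mice of 12, 26 and 28 months. In them the same 7 rose, with adjusted p of 0.224 for Cd14 (0.0114) and 0.22 for Myd88. Without mice 17 and 25 the Cd14 slope was 0.0329 ± 0.00403 and that of Myd88 was 0.00419 ± 0.00189 (adjusted p = 0.0688, and 0.0648 without mouse 17 alone).

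Whether the slopes differ between regions was tested in a joint edgeR fit of all 847 libraries, in which 7 of the 10 genes passed the filter. All 7 differed between regions, where 19.0% of 15069 genes did. The F values over the 14 age by region terms were 6.41 for Cd14, 5.24 for Tlr2, 4.2 for Tlr7, 3.88 for Tlr4, 3.25 for Tlr3, 2.77 for Tlr13 and 2.64 for Myd88, with adjusted p from 2.33e-10 to 0.00849. That fit held no term for the mouse and took the libraries of a mouse as independent. With the mouse as a replicate block all 7 differed too. In mice 16 to 56 alone 6 of the 7 differed, and Tlr3 did not (F = 1.42, adjusted p = 0.313).

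In the white matter tract the slope of Tlr2 was higher than the mean slope of the other 14 regions by 0.0473 ± 0.0103 log2 per month (adjusted p = 0.000935) and that of Cd14 by 0.0366 ± 0.0107 (adjusted p = 0.0335). Of all genes 1.67% had a higher and 0.750% a lower slope in corpus callosum by this test. With the mouse as a replicate block the differences were 0.0437 (adjusted p = 0.00187) for Tlr2 and 0.0256 for Cd14, whose adjusted p of 0.0500453 then missed the threshold. Mice 16 to 56 are fewer and lack the ages of 12, 26 and 28 months. In them neither was called (Tlr2 0.0387 ± 0.0138, adjusted p = 0.383, and Cd14 0.0413 ± 0.0142, adjusted p = 0.342). Taken alone, cerebellum (0.0934) and caudate putamen (0.0877) had Tlr2 slopes close to that of corpus callosum (0.0961). Without mice 17 and 25 the difference of Cd14 was 0.0164 (adjusted p = 0.377), so its call rested on them. For the other 5 genes the difference ran from 0.00286 for Tlr7 to 0.0152 for Tlr13, with no call.

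Bulk tissue gives the sum over its cells, so more cells of a type and more RNA per cell cannot be told apart. Markers of microglia moved with age beside the receptors: 11 of 12 rose in the mouse-level test, with a median slope of 0.0137, and none of the 12 was at 0 in any region at 3 or 28 months. In that test, which gave all counts of markers in this paragraph, 22.1% of all genes rose and 23.3% fell. Their summed level in corpus callosum was 494 to 604 CPM (median 559) at 3 months and 714 to 958 CPM at 28 months. In medulla it was 305 to 426 CPM and 470 to 562 CPM, and in visual cortex 387 to 570 CPM and 396 to 433 CPM. All 12 genes of a list of activated microglia rose, with a median slope of 0.0511, close to that of Tlr2. Of 8 border macrophage markers 1 rose and 1 fell. Of 8 astrocyte markers 4 rose and 1 fell, Gfap most (0.0614 ± 0.00427), and their summed level in corpus callosum was 2212 to 2482 CPM at 3 months and 3292 to 3918 CPM at 28 months. Their part in the slopes of Tlr3 was not tested. Of 8 markers each, oligodendrocyte genes rose in 6 cases and neuronal genes fell in 4. Of 12 granulocyte markers 10 were tested and 8 rose. Their summed level in corpus callosum was 0.112 to 20.8 CPM at 3 months, with 5 of the 12 at 0, and 1.09 to 56.3 CPM at 28 months.

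With the mean log level of the 12 microglia markers as a covariate, 13 of the 108 tested pairs rose. Each of the 13 was among the 46 pairs that rose without it. Of the pairs of all genes 5.71% rose with the covariate and 6.37% without it. The slope became smaller in 42 of 46 pairs, and the median ratio of the slope with the covariate to that without was 0.564. Tlr2 in corpus callosum was among the 4 exceptions, with 0.103 ± 0.014 in place of 0.0961. Tlr2 in cerebellum went from 0.0934 to 0.0475 ± 0.012 and in pons from 0.0728 to 0.0542 ± 0.00683, and both were still called. Tlr4 in cerebellum had 0.0594 ± 0.0135 in place of 0.0543. Tlr13 in medulla had 0.0561 ± 0.0153 in place of 0.0695, but in pons 0.0105 ± 0.0136 in place of 0.0624. Tlr7 in corpus callosum and Cd14 in choroid plexus had slopes of -0.00215 ± 0.0108 and -0.0148 ± 0.0148. The covariate is itself measured in the same libraries, and the part of cell number in these slopes was not tested. With border macrophage markers as the covariate 46 pairs rose, not all of them the same: neither rise of Myd88 was called (corpus callosum adjusted p = 0.0809, medulla 0.133), Tlr3 rose in 5 regions in place of 6, Cd14 in 6 in place of 4 and Tlr7 in 7 in place of 6. With granulocyte markers 40 pairs rose.

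**Figure D5:**
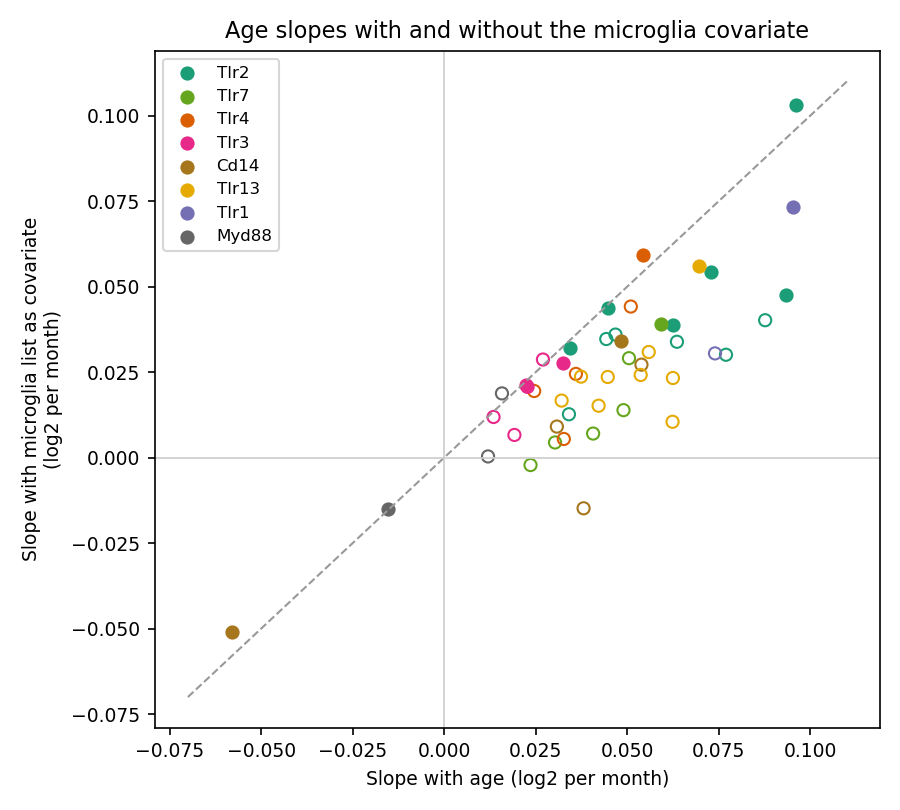
Each point is 1 of the 48 called gene and region pairs, with the slope with age (log2 per month) on the x axis and the slope with the microglia markers as a covariate on the y axis. Filled points were still called, and the dashed line marks equality. Most points lie under the line, while Tlr2 in corpus callosum (0.0961, 0.103) lies on the other side of it.

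The sexes were compared at 3 to 21 months, the ages both have, with age as a factor. Of the gene and region pairs 6 differed, each lower in males, where 1.63% of all pairs were lower and 1.38% higher in males. No pair was higher in males by edgeR, and 7 were at an unadjusted p under 0.05. The calls fell in 2 regions. In choroid plexus (all genes lower in males 0.707%) Tlr2 had 3.61 ± 1.57 CPM (n = 25) in males and 5.11 ± 2.8 CPM (n = 24) in females, a difference of -0.505 ± 0.115 log2 (adjusted p = 0.0126). Of 12 microglia markers 3 were lower in males there and 0 higher, with a median difference of -0.129 log2, and their part in that of Tlr2 was not tested. In medulla 14.3% of all genes were lower in males, so 5 of the 7 genes tested there stand beside a broad difference.

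The medulla differences, males minus females in log2, were -0.734 ± 0.113 for Tlr3 (adjusted p = 1.45e-05), -0.589 ± 0.168 for Tlr7, -0.553 ± 0.159 for Tlr4, -0.424 ± 0.141 for Tlr13 and -0.309 ± 0.0878 for Tlr2. Cd14 (-0.222 ± 0.125) and Myd88 (-0.0839 ± 0.0608) were not called. Tlr3 there had 13.6 ± 2.77 CPM in 26 males and 21.9 ± 8.33 CPM in 24 females, and Tlr4 had 1.2 ± 0.488 and 1.89 ± 1.05 CPM. In the same medulla libraries 9 of 9 tested granulocyte markers were higher in males and 4 of 12 microglia markers lower. The part of these cells in the receptor differences was not tested.

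Tlr3 in medulla followed the mouse number. Mice 1 to 44 had 7.55 to 22.6 CPM (median 14, n = 43) and mice 45 to 59 had 19.7 to 35.8 CPM (median 30.5, n = 15). The boundary was drawn after the values were seen, so this is a description with no test. Within females of the same ages, mice 37 to 44 had 7.55 to 17.2 CPM (n = 8) and mice 45 to 56 had 19.7 to 35.8 CPM (n = 12), a 2.17-fold ratio of medians without overlap. Of the 150 gene and region pairs this was the only one in which those 2 sets of females did not overlap. The labels do not say what the mouse number stands for.

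All mice from 45 to 56 are females and mice 57 to 59 are the 28-month males, so the age of 28 months cannot be told apart from mouse number. Mice 1 to 15 hold all of the mice of 12 and 26 months, so these ages cannot be told apart from mouse number either. The 8 females numbered 37 to 44 (median 13.5 CPM) overlapped with mice 1 to 36, which had 9.09 to 22.6 CPM (median 14.1). The 28-month males had 31.7, 32 and 34.8 CPM of Tlr3, against 14, 15, 16, 17.6 and 22.5 CPM in the 26-month males. Without mice 45 to 59 the sex difference of Tlr3 in medulla was -0.239 ± 0.103 (adjusted p = 0.249) and its slope with age 0.0112 ± 0.00643 (adjusted p = 0.31). That exclusion, chosen after the values were seen, removes 15 of 59 mice and all of the 28-month mice, and none of the 6 sex calls was then made. Tlr7 in medulla had a difference of -0.703 ± 0.202 without those mice (adjusted p = 0.0865), and Tlr13 one of -0.112 ± 0.169. In medulla the slopes with age of Tlr2 (0.0632 ± 0.00713), Tlr13 (0.0721 ± 0.0111), Cd14 (0.051 ± 0.0105) and Myd88 (0.0141 ± 0.00445, adjusted p = 0.0395) were still called without them. Those of Tlr4 (0.0276 ± 0.0115, adjusted p = 0.144, from 0.051) and Tlr7 (0.0328 ± 0.0129, adjusted p = 0.115) were not.

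The slopes of the sexes differed in 2 pairs, each lower in males, where 0.0628% of all pairs had a lower slope in males. Tlr2 in motor cortex (all genes 0.0937%) had a slope lower by 0.126 ± 0.0244 log2 per month in males, that is -0.126 for males minus females (adjusted p = 0.0116). Females went from 0.333, 0.334, 0.341, 0.592 and 0.719 CPM at 3 months to 0.984, 1.17, 1.75, 1.88 and 2.7 CPM at 21 months, without overlap. Males had 0.222, 0.879, 1.11, 1.42 and 1.86 CPM at 3 months and 0.737 to 1.45 CPM at 21 months, with overlap. Tlr7 in medulla (all genes 0.0485%) had -0.115 ± 0.0247 (adjusted p = 0.0356). Its female levels were 0.708, 0.74, 0.905, 1.03 and 1.4 CPM at 3 months and 2.56, 2.79, 3.17, 3.74 and 3.97 CPM at 21 months. Males had 0 to 1.93 CPM at 3 months and 0 to 1.69 CPM at 21 months. Neither call was made without mice 17 and 25, where the difference was -0.126 ± 0.0263 for Tlr7 (adjusted p = 0.0751) and -0.108 ± 0.0274 for Tlr2 (adjusted p = 0.3).

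For Cd14 the slope was lower in males in 15 of 15 regions, with a median difference of -0.0651 and no call. At an unadjusted p under 0.05, 12 regions passed by edgeR and 11 by DESeq2, which also called none. Both high 3-month mice are males. Without them the difference was negative in 14 of 15 regions with a median of -0.0184.

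Other genes of the pathway were taken from fixed lists and tested at the level of the mouse. Named are up to 3 genes a list that passed in the most regions, and Hsp90b1, Ticam1, Ccl4, Ccl2, Il1a, Ptgs2, Tlr5, Tlr8 and Tlr11 besides, which were picked with their values known. At that level 22.1% of all genes rose and 23.3% fell. Of 9 co-receptors and chaperones 5 rose and 1 fell. Unc93b1, which carries the endosomal receptors to their compartment, rose at 0.0279 ± 0.00153 log2 per month and in 12 of 15 regions taken alone. Ly86 (0.0297 ± 0.00225) and its receptor-like partner Cd180 (0.0249 ± 0.00368) rose in 11 and 10 regions. The member that fell was the chaperone Hsp90b1 (-0.00666 ± 0.00123).

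Of 16 adaptors and kinases 6 rose and 2 fell, where 22.1% of all genes rose and 23.3% fell. Ticam2, the adaptor that links Tlr4 to Ticam1, rose at 0.0255 ± 0.00327 and in 6 of the 9 regions where it was tested. Its mean was 0.743 CPM, so it can pass the filter through its highest libraries alone, and that count is not independent of the filter. Chuk, an IkappaB kinase subunit, fell at -0.00754 ± 0.000863 and in 10 regions, and Traf3 fell at -0.0107 ± 0.00147 and in 6. Ticam1, the adaptor of Tlr3, had a slope of 0.00291 ± 0.00224. Of 8 transcription factors 4 rose and none fell, with Irf7 (0.0506 ± 0.00552) and Irf8 (0.0343 ± 0.00198) rising in 12 regions each and Irf5 (0.00655 ± 0.00116) in 5.

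Of 7 inhibitors tested 2 rose and 2 fell, near the shares over all genes (22.1% and 23.3%). Irak3, a kinase-like inhibitor of Myd88 signalling, rose at 0.0329 ± 0.00355 and in 8 regions, while Nfkbia, the inhibitor that holds NF-kappaB in the cytoplasm, fell at -0.00996 ± 0.00372 and in 6. Tank fell at -0.0032 ± 0.000776 and in 3 regions. The inhibitor Nfkbia was also among the genes highest in mouse 17, at a median of 70.1 CPM over its regions against 36.9 CPM in the other 3-month mice.

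Among the 6 lists the output genes had the highest median slope. Of 14, 7 passed the filter, with a median slope of 0.0487, and 6 of these rose, where 22.1% of all genes did. Ccl3, Ccl5 and Cxcl10 were low, with means of 0.797, 0.702 and 0.813 CPM. Genes this low can pass the filter through their highest libraries alone, so these counts are not independent of the filter. Those that rose were the chemokines Ccl3 (0.0779 ± 0.00515), Ccl4 (0.0759 ± 0.00578), Ccl5 (0.0671 ± 0.00649), Cxcl10 (0.0487 ± 0.00685) and Ccl2 (0.0272 ± 0.00482), and the cytokine Il1a (0.0273 ± 0.00394). Ptgs2 did not rise (0.000331 ± 0.00563). Tnf, Il1b, Il6, Il12b, Il1rn, Nos2 and Ifnb1 were too low to test, with means from 0.00065 CPM for Ifnb1 to 0.254 CPM for Nos2. Of the other Toll-like receptor genes, Tlr12 rose (0.0252 ± 0.00374), Tlr5 was not called (0.00488 ± 0.00327), and Tlr8 (0.0545 CPM) and Tlr11 (0.0091 CPM) were not tested. Tlr12, with a mean of 0.569 CPM, passed the filter in 3 regions, so its rise is not independent of the filter either.

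Over the 847 libraries, with region means subtracted and genes of at least 5 CPM searched, the genes whose levels ran most like those of Tlr2 were Ctsd (Pearson's r = 0.664), Lyz2 and Ctss, 3 genes of lysosomes and myeloid cells. For Cd14 they were the complement genes C1qb (0.527), C1qc and C1qa, for Tlr13 Adgre1 (0.477), Ptpn6 and C4b, for Tlr7 Cyba (0.394), C1qa and C1qb, for Tlr1 C1qb (0.371), Fcgr2b and Itgb2, and for Tlr4 Pros1 (0.399), Hpgd and Itgb2. Tlr3 differed, with Ermp1 (0.562) and Il6st among the nearest, as did Myd88, with Tspo (0.385), Il10rb and Mvp. For Tlr6 (Arhgap45, 0.269) and Tlr9 (Cyba, 0.227) the highest correlations were lower than for the other 8 genes. These libraries share mice, depth and cell makeup, so the values describe these data alone.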

How the data were processed

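RNA of 15 brain regions was sequenced (mRNA-seq) from 59 mice, with 1 library per mouse and region, so the libraries of a region come from separate mice. Per the labels' protocols, RNA came from RNeasy kits, and Smart-Seq2 cDNA went into unstranded Nextera XT libraries. The authors deposited 1 table of whole-number read counts per gene and library. Per the submitters' processing notes, Trim Galore 0.3.7, STAR 2.5.3a, DESeq2 and the build GRCm38 were used. The counting program, the annotation and the treatment of reads that fit several genes are not given in the sources used here. All 847 columns matched a labelled sample. Reads carry no molecular identifiers, so spread between mice was used as the error.

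Groups came from the labels. The genes, lists and tests were chosen with earlier results of these data known, including gene lists and 5 libraries that stood apart. The rule for named genes was the 10 genes in every region, up to 3 genes a pathway list past the threshold in the most regions, and for each of the 10 genes the 3 genes of at least 5 CPM with the highest correlation. The lists were for the pathway (6 lists) and for cell types, of which microglia, activated microglia, border macrophages, granulocytes, astrocytes, oligodendrocytes and neurons are printed in the report. At the level of the mouse, where 22.1% of all genes rose and 23.3% fell, 3 of 6 monocyte markers rose and 1 fell. There 1 of 2 tested B cell, 1 of 2 tested T cell and 1 of 8 choroid plexus markers rose. Of 8 endothelial markers 2 rose and 2 fell, and 0 of 5 blood markers passed limma's test, 0 also at an unadjusted p under 0.05.

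Within regions, edgeR 4.0.16 (R 4.3.3) fitted quasi-likelihood models with TMM factors, filterByExpr on the sex and age groups and Benjamini-Hochberg adjustment over all genes tested, with a threshold of 0.05. Age in months stood beside sex. The sexes and the age by sex term used 3 to 21 months. Limma 3.58.1 tested 1 value per mouse (log2 CPM, prior count 2). A joint edgeR fit compared slopes between regions, and a mouse with the same number in 2 regions is, per the labels, the same animal, so its libraries are paired. The main joint fit left that pairing out, and its alternative with a replicate block (mouse) used it. The within-region fit of age was tested on counts simulated for corpus callosum at 1 fixed dispersion. The other fits were not tested in this way. Coordinates and exon lengths are from GENCODE M21 and promoters from RefSeq. Alternatives were RLE factors, no filter, DESeq2 1.42.0, prior count 0.5, subsets of mice, marker lists as covariates and a replicate block. Exclusion of mice 17 and 25, exclusion of mice 45 to 59, and a finer filter of the joint fit were added after the data were seen.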

Additional observations from a re-analysis of the deposited data

Results flagged for a closer look

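For 18 gene and region pairs, chosen with their values known, the libraries of each age were examined for one far from the others. That gave 91 sets of 1 gene, region and age with 4 to 10 libraries, of which 7 held such a library, where chance gives about 1 in 20 and sets that share libraries are not independent. In corpus callosum at 12 months, mouse 3 had 4.04 CPM of Tlr2 against 1.37 to 2.12 CPM in the other 8. In motor cortex at 26 months, mouse 14 had 1.71 CPM of Tlr2 against 0.885 to 1.02 CPM. In cerebellum at 18 months, mouse 51 had 3.37 CPM of Tlr4 against 0.684 to 2.03 CPM, and in olfactory bulb at 26 months mouse 2 had 2.48 CPM against 3.91 to 4.26 CPM. In corpus callosum at 18 months, mouse 43 had 17.5 CPM of Tlr3 against 8.23 to 13.2 CPM. In medulla at 12 months, the female mouse 13 stood apart for both X-linked receptors, with 2.86 CPM of Tlr7 against 0.692 to 1.45 CPM and 3.43 CPM of Tlr13 against 0.998 to 1.65 CPM.

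The effect of age differed between groups in 9 results. The slope in males minus that in females was -0.115 ± 0.0247 log2 per month for Tlr7 in medulla (adjusted p = 0.0356, edgeR) and -0.126 ± 0.0244 for Tlr2 in motor cortex (adjusted p = 0.0116). The slopes differed between regions for all 7 genes that passed the filter of the joint edgeR fit, with F values of 5.24 for Tlr2, 3.88 for Tlr4, 3.25 for Tlr3, 2.64 for Myd88, 6.41 for Cd14, 2.77 for Tlr13 and 4.2 for Tlr7. In mice 16 to 56 the difference between regions was not called for Tlr3.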

How the results depend on the processing

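Leaving out 12 mice in turn (the 3 of 28 months, the 5 of 26 months and 4 of 3 months) gave 42 to 49 rising pairs (46 with all mice) and 0 to 2 falling pairs (2 with all), with 0 without mouse 17 and 1 without mouse 41. At the level of the mouse, leaving out each of 59 mice gave 8 to 9 of 9 rising genes. Rising pairs numbered 24 in mice 16 to 56, 23 without mice 45 to 59, 22 in males alone, 30 at 3 to 21 months and 13 with the microglia covariate. The first 4 of these hold fewer mice, and mice 16 to 56 lack the ages of 12, 26 and 28 months. They numbered 46 to 50 with RLE factors, no filter, DESeq2, without shallow libraries or with the library total as covariate, and 52 without mice 17 and 25. Falling pairs numbered 0 by DESeq2 (3 at an unadjusted p under 0.05), 0 without mice 17 and 25 (1 unadjusted), 1 without mice 45 to 59 and 1 in males alone. Pairs differing between the sexes numbered 0 without mice 45 to 59 (10 unadjusted) and 0 in 12-month mice alone (1 unadjusted). Age by sex terms numbered 0 without mice 17 and 25 (15 unadjusted) and 0 without mice 45 to 59 (22 unadjusted). In males alone 5 of 9 genes rose at the level of the mouse. With the microglia covariate 4 of 7 genes differed in slope between regions, and in mice 16 to 56 6 of 7, without Tlr3. Slopes in corpus callosum that differed from the other regions numbered 1 with the replicate block (mouse), 0 in mice 16 to 56, 1 with the microglia covariate and 1 without mice 17 and 25, against 2. The replicate block changed no other call of the joint fit.

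Signs turned in 8 single values. With the microglia covariate the slope was -0.0148 for Cd14 in choroid plexus and -0.00215 for Tlr7 in corpus callosum. Cd14 in visual cortex had 0.00367 without mice 17 and 25. The sex difference of Tlr2 in medulla was 0.188 in 12-month mice alone. The slope in corpus callosum minus the others was -0.00248 for Tlr4 in mice 16 to 56, and for Tlr7 -0.0011 with the replicate block, -0.0111 in mice 16 to 56 and -0.000293 without mice 17 and 25. For the slopes of called pairs, 1130 alternative values kept direction and side of the threshold and 150 lost the call with the same sign. The cause was not tested, beyond the fewer mice named. Tlr1, Tlr6 and Tlr9, with medians of 3, 3 and 1 reads a library, are limited by depth.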

Other observations

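The male of 3 months numbered 17, which had the highest Cd14 of its age in 11 of 15 regions, also stood highest for other genes. Of 14180 genes averaging 1 CPM or more, 38 were highest in mouse 17 in 10 or more regions, against 0 to 19 genes in each of the other 9 mice of that age. The list was drawn from these values and is a description with no test. The adhesion genes Icam1 and Vcam1, whose products bind leukocytes to vessel walls, were highest there in 15 of 15 regions, with medians of 26.6 CPM against 3.44 CPM and 106 CPM against 40.7 CPM in the other 3-month mice. The heat shock genes Hspa1a (46.9 against 12.4 CPM) and Hspa1b (4.87 against 0.924 CPM) were highest in 15 regions as well. Nfkbia, an NF-kappaB inhibitor that NF-kappaB itself induces, was highest in 14 regions (70.1 against 36.9 CPM), and the related gene Nfkbiz in 13 (7.51 against 4.11 CPM). Lcn2, an iron-binding acute phase gene that is also a granulocyte marker of the lists used here, was highest in 10 regions, at 19.6 CPM against 0.156 CPM. Cebpd, an acute phase transcription factor gene, had 18 CPM against 6.68 CPM, and the glucocorticoid-induced gene Sgk1 had 256 CPM against 95.8 CPM. Of the 10 genes described in the report, Cd14 alone was on this list of 38. Mouse 53, a female, had 19 such genes, and mouse 25, the other male with high Cd14, had 2.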
